A study of Mus musculus with 6 samples.

Results

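The extracellular lipase system was followed in liver through 8 genes taken from a count table of 37991 Ensembl gene IDs by their mouse symbols: Lpl, Lipc, Lipg, Gpihbp1, Angptl4, Apoc2, Apoc3 and Apoa5. They were chosen by gene name, with their counts in all 6 livers and their differences between the genotypes already known, so their values between genotypes are a description and carry no test of their own. The study measured poly(A) RNA from livers of male mice aged 12 weeks. The 3 Zpbp2 KO livers came from B6.Zpbp2-/- males, which carry a knockout of the gene for zona pellucida binding protein 2, and the 3 WT livers came from C57BL/6J males. All 6 share the C57BL/6J background, and the sources used here do not give which part of Zpbp2 the allele removes, nor the feeding state of the animals.

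Lipases of this system act outside cells, on lipoproteins in the blood. Lipoprotein lipase (Lpl) hydrolyses triglyceride at the capillary wall, where GPIHBP1, a protein of capillary endothelial cells, holds it. Hepatic lipase (Lipc) is made by hepatocytes and works in the liver sinusoids on remnants and HDL, and endothelial lipase (Lipg) acts mainly on HDL phospholipid. The liver also secretes proteins that set lipoprotein lipase activity: APOC2 is its cofactor, APOA5 raises its activity, and APOC3 and ANGPTL4 lower it. Adult liver itself holds little lipoprotein lipase, so the liver takes part in this pathway largely through the secreted regulators and through hepatic lipase.

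Total counts were 37904891 to 52955687 per library, and 14686 genes passed the filter on low counts, all 8 lipase-system genes among them. Zpbp2 held 0 counts in each Zpbp2 KO library and 4 to 13 in the WT libraries. Levels are given as CPM, the count scaled to the TMM-corrected library total. Hepatocyte markers dominated, with a summed level of 100800 to 105400 CPM in Zpbp2 KO livers and 92280 to 99780 CPM in WT livers over 8 genes. Certain libraries stood apart in markers of other tissues. Markers of striated muscle, 6 genes such as Acta1 and Ckm, summed to 107.7 CPM in WT replicate 1 and to at most 0.175 CPM in each other library. Markers of exocrine pancreas, 6 genes of which Amy2a5 was at 0 throughout, summed to 165.9 CPM in Zpbp2 KO replicate 1 and to 11.9 to 36.9 CPM in the other 5, where Cela1 made up most of the sum. In Zpbp2 KO replicate 2 all 8 sinusoidal endothelial, all 8 vascular endothelial and all 8 Kupffer cell markers were at their lowest. In these bulk samples fewer cells of a type and less RNA per cell cannot be told apart.

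By edgeR's quasi-likelihood test, 0 of the 8 lipase-system genes differed between the genotypes at an adjusted p below 0.05, and 1, Lipg, had an unadjusted p below 0.05, on the lower side. Over all genes the same test called 2 of 14686, which is 0.0136%, both of them lower, and 850 had an unadjusted p below 0.05, which is 5.79% (2.86% higher and 2.93% lower). DESeq2 called Lipg (adjusted p = 0.0486) among 76 genes, 0.517% of all tested, of which the lower ones made up 0.334%. Limma-voom called 0 of the 8, and 2 of all 14686 genes, which is 0.0136%. Groups that do not overlap in CPM were found for 2 of the 8 genes, Lipg on the lower and Lipc on the higher side, against 11.6% of all tested genes (5.56% higher and 6.01% lower). The median log2 fold change of the 8, Zpbp2 KO over WT, was 0.15, with 6 above 0 and 2 below, and that of all tested genes was 0.01, with 52.9% above 0. With 1 library left out the median of the 8 ran from 0.0362 without WT replicate 3 to 0.21 without WT replicate 1, with 0.0537 without WT replicate 2. It was 0.18 with both WT replicate 1 and Zpbp2 KO replicate 1 left out. With a trend with transcript length and GC content removed it was 0.0811. Since the genes were chosen with this comparison known, nothing is read from these counts.

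**Figure D1:**
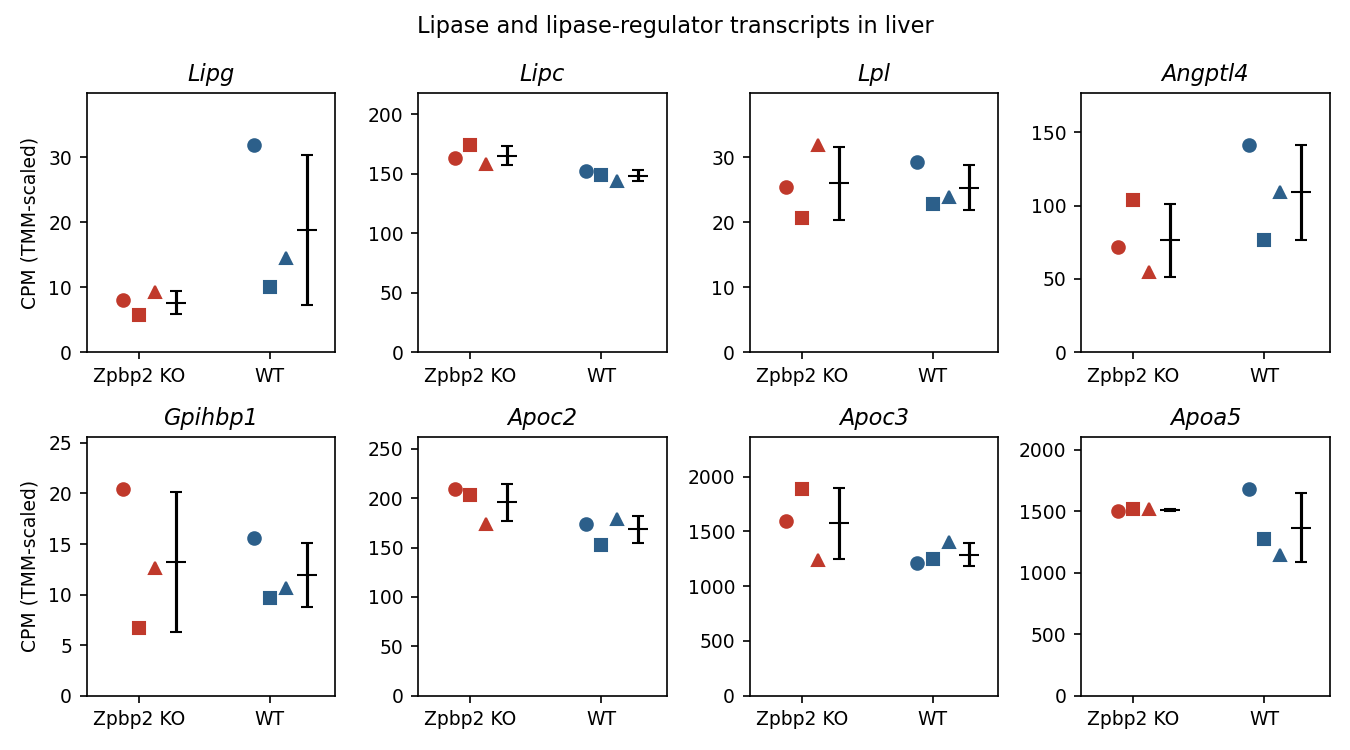
CPM of each gene in the Zpbp2 KO (red, left) and WT (blue, right) livers, with TMM-scaled library sizes. Circles, squares and triangles are replicates 1, 2 and 3, the black bar is the mean ± SD of 3 livers, and each axis starts at 0. Lipg values of the Zpbp2 KO livers lie between 5.66 and 9.21 CPM, all below the WT livers, while Apoa5 lies between 1498 and 1517 CPM in the Zpbp2 KO livers and is more spread in WT.

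By level per length the 3 apolipoprotein transcripts were above all 3 lipases, and Angptl4 lay between Lipc and the other lipases, in the same order in both genotypes. Values are CPM per kb of the median length of the gene's annotated transcripts. Apoc3 had 3471 ± 721 in Zpbp2 KO livers and 2841 ± 231 in WT livers (SD, n = 3 each). Apoa5 had 2471 ± 17.2 in Zpbp2 KO and 2237 ± 460 in WT livers (SD, n = 3 each). The WT ranges of Apoc3 and Apoa5 overlapped, so their order is not resolved, and with the longest transcript as the length they stood apart in WT, at 1815 and 543.5. Apoc2 followed with 309.9 ± 30.2 in Zpbp2 KO and 266.6 ± 21.6 in WT livers, and Lipc with 157.3 ± 7.50 in Zpbp2 KO and 141.1 ± 4.27 in WT livers. Angptl4 had 62.8 ± 20.5 in Zpbp2 KO and 89.6 ± 26.6 in WT livers. These 3 did not overlap their neighbours in the WT order.

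The remaining genes were low. Gpihbp1 had 15.4 ± 8.02 CPM per kb in Zpbp2 KO and 13.9 ± 3.69 in WT livers, and Lpl 10.7 ± 2.32 in Zpbp2 KO and 10.5 ± 1.41 in WT livers. Lipg was lowest, with 2.39 ± 0.567 in Zpbp2 KO and 5.91 ± 3.61 in WT livers. The WT ranges of Gpihbp1 and Lpl overlapped, and so did those of Lpl and Lipg. Hepatic lipase was thus the most abundant of the 3 lipase transcripts in every liver. The order of the 8 was the same with the longest transcript in place of the median length.

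**Figure D2:**
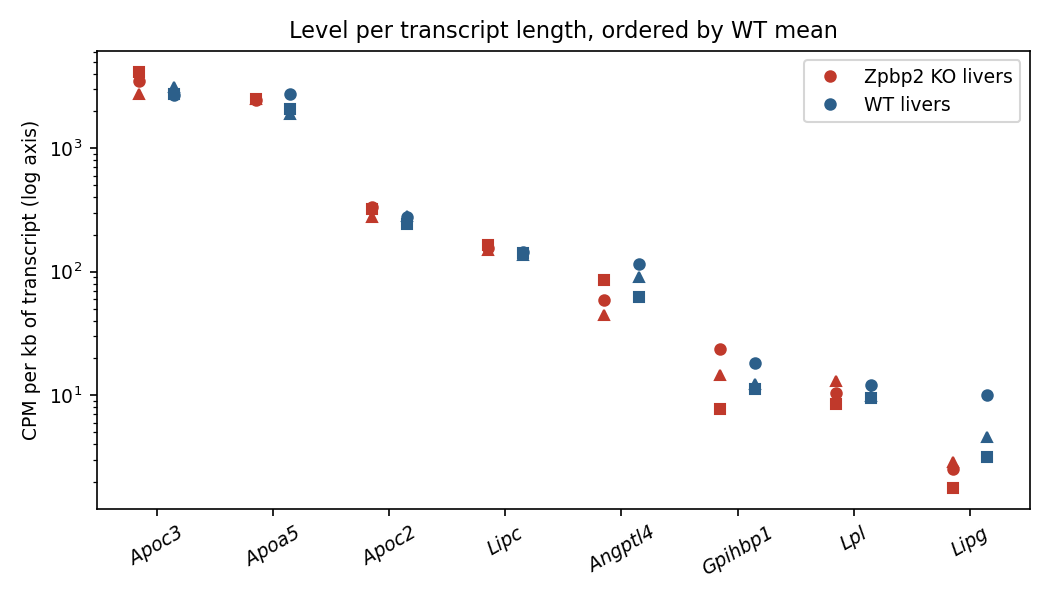
Level of each gene in CPM per kb of median transcript length, on a log axis, ordered by the WT mean. Zpbp2 KO livers are red and left, WT livers blue and right, with circles, squares and triangles for replicates 1, 2 and 3. Apoc3 and Apoa5 lie at 1876 or above, Apoc2 and Lipc between 136.5 and 332.0, and Gpihbp1, Lpl and Lipg at 23.8 or below.

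Lipg, endothelial lipase (ENSMUSG00000053846, chromosome 18), had the largest difference of the 8. It had 8.01, 5.66 and 9.21 CPM in Zpbp2 KO livers, against 31.9, 10.1 and 14.6 CPM in WT livers. Every Zpbp2 KO liver was below every WT liver, but the gap between the genotypes was small, and WT replicate 1 stood well above all others. The means were 7.63 ± 1.81 CPM in Zpbp2 KO and 18.8 ± 11.5 CPM in WT livers (SD, n = 3 each), a ratio of 0.405. The fitted log2 fold change was -1.30 ± 0.398 (SE). Without WT replicate 1, the library with striated muscle markers, it was -0.69, and with Zpbp2 KO replicate 1 left out as well it was -0.72. The part of the muscle transcripts in the Lipg level was not tested. Set against the summed vascular endothelial markers, Lipg had 30.8, 51.8 and 46.7 per 1000 in Zpbp2 KO livers and 131.8, 60.9 and 85.0 per 1000 in WT livers, again with no overlap. Scaled to sinusoidal endothelial or stellate cell markers the genotypes did not overlap either. Scaled to Kupffer cell markers they did, with 19.3, 39.7 and 20.7 per 1000 in Zpbp2 KO livers and 91.1, 35.3 and 59.3 per 1000 in WT livers.

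Lipc, hepatic lipase (ENSMUSG00000032207, chromosome 9), had the steadiest level of the 3 lipases. It had 163.5, 173.9 and 158.4 CPM in Zpbp2 KO livers, against 152.4, 148.8 and 143.5 CPM in WT livers. All Zpbp2 KO livers were above all WT livers, by a margin small next to the level. The means were 165.3 ± 7.89 CPM in Zpbp2 KO and 148.3 ± 4.49 CPM in WT livers (SD, n = 3 each), and the log2 fold change was 0.16 ± 0.0874 (SE). Leaving out any library kept it between 0.12 and 0.19.

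Lpl, lipoprotein lipase (ENSMUSG00000015568, chromosome 8), had no direction that held in every fit. It had 25.4, 20.7 and 31.9 CPM in Zpbp2 KO livers, against 29.2, 22.9 and 24.0 CPM in WT livers. The Zpbp2 KO range enclosed the WT range. The log2 fold change was 0.04 ± 0.172 (SE), and its sign turned without Zpbp2 KO replicate 3 (-0.14), without WT replicate 2 (-0.03) and without WT replicate 3 (-0.02). Adipocytes and muscle are rich in Lpl. The 7 adipocyte markers summed to 6.27, 6.23 and 2.57 CPM in Zpbp2 KO livers and to 8.999, 2.78 and 4.35 CPM in WT livers. Plin4 was the highest of them in every liver, and Adipoq was at 0 in Zpbp2 KO replicate 3 and in WT replicates 2 and 3. WT replicate 1 held 107.7 CPM of striated muscle markers, and without it the log2 fold change of Lpl was 0.15. The part of these transcripts in the Lpl level was not tested.

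Gpihbp1, the endothelial anchor of lipoprotein lipase (ENSMUSG00000022579, chromosome 15), varied more within the Zpbp2 KO livers than between the genotypes. It had 20.5, 6.69 and 12.6 CPM in Zpbp2 KO livers, against 15.6, 9.66 and 10.6 CPM in WT livers. Zpbp2 KO replicate 1 was the highest and Zpbp2 KO replicate 2 the lowest of all 6. The log2 fold change was 0.15 ± 0.365 (SE), which became -0.31 without Zpbp2 KO replicate 1 and 0.47 without Zpbp2 KO replicate 2.

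The order of the 6 livers by Gpihbp1 was the same as that by the summed vascular endothelial, sinusoidal endothelial or stellate cell markers, and not that by Kupffer cell markers, while the spread of Gpihbp1 was smaller when scaled to any of 4 lists of non-parenchymal cell markers. The 8 vascular endothelial markers, among them Pecam1, Cdh5 and Kdr, summed to 259.9, 109.1 and 197.2 CPM in Zpbp2 KO livers and to 241.8, 165.0 and 171.4 CPM in WT livers. Per 1000 of that sum, Gpihbp1 had 78.8, 61.3 and 63.8 in Zpbp2 KO livers and 64.4, 58.5 and 62.0 in WT livers. On this scale the coefficient of variation of Gpihbp1 was 13.9% in Zpbp2 KO livers and 4.79% in WT livers, while that of its CPM was 52.2% in Zpbp2 KO livers and 26.6% in WT livers. Against the 8 sinusoidal endothelial markers it was 15.03% in Zpbp2 KO and 8.42% in WT livers, against the 8 Kupffer cell markers 27.8% in Zpbp2 KO and 14.25% in WT livers, and against the 8 stellate cell markers 35.0% in Zpbp2 KO and 16.6% in WT livers. For Lpl the coefficient of variation of its CPM was 21.6% in Zpbp2 KO and 13.4% in WT livers. Scaled to vascular endothelial markers it was 31.3% in Zpbp2 KO and 7.96% in WT livers, to sinusoidal endothelial markers 30.01% in Zpbp2 KO and 4.29% in WT livers, to Kupffer cell markers 49.3% in Zpbp2 KO and 10.5% in WT livers, and to stellate cell markers 15.4% in Zpbp2 KO and 7.12% in WT livers. Whether the cell makeup of the livers set these levels was not tested.

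**Figure D3:**
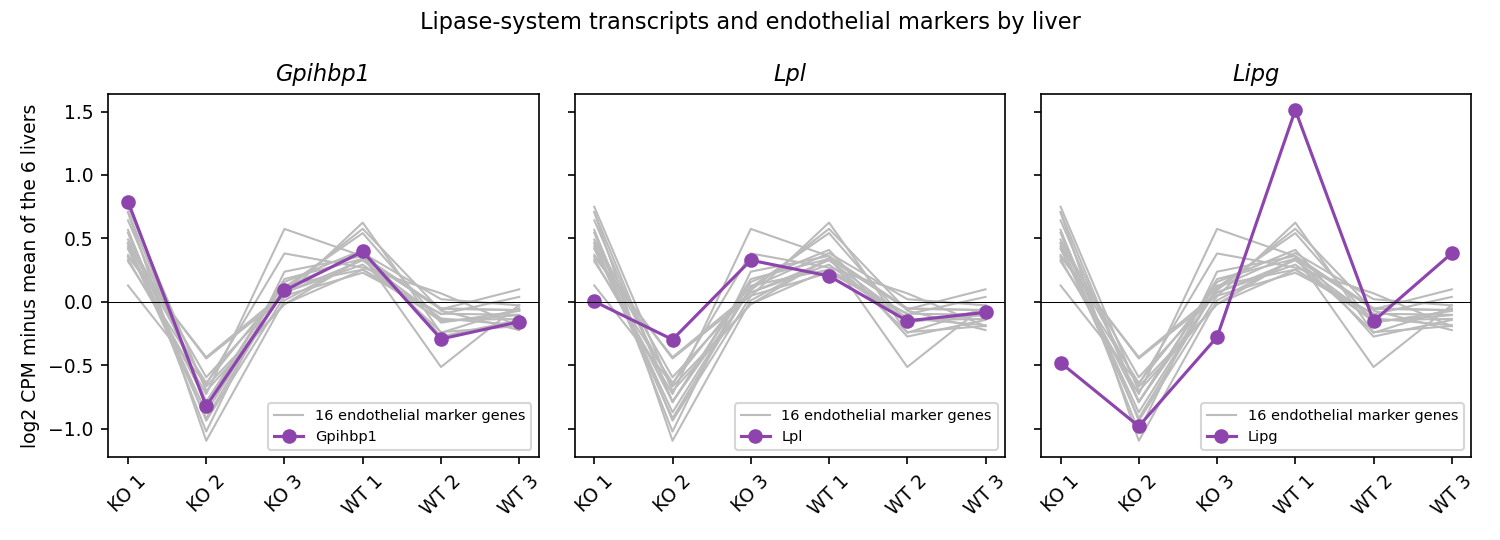
Log2 CPM of Gpihbp1, Lpl and Lipg (purple) and of 16 endothelial marker genes (grey), each minus its mean over the 6 livers. Lines link the values of a gene and carry no order among replicates. Gpihbp1 lies within or at the edge of the grey lines in every liver, with 20.5 CPM in Zpbp2 KO replicate 1 and 6.69 CPM in Zpbp2 KO replicate 2, while Lipg lies above them in WT replicates 1 and 3 and below them in Zpbp2 KO replicates 1 and 3.

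Angptl4, a secreted inhibitor of lipoprotein lipase that fasting and PPAR agonists induce (ENSMUSG00000002289, chromosome 17), was lower on average in Zpbp2 KO livers with wide overlap. It had 71.6, 103.5 and 54.4 CPM in Zpbp2 KO livers, against 141.2, 76.5 and 109.5 CPM in WT livers. Zpbp2 KO replicate 2 lay above WT replicate 2, and WT replicate 1 was the highest. The means were 76.5 ± 24.9 CPM in Zpbp2 KO and 109.1 ± 32.4 CPM in WT livers (SD, n = 3 each), with a log2 fold change of -0.51 ± 0.271 (SE). It was -0.79 without Zpbp2 KO replicate 2 and -0.32 without Zpbp2 KO replicate 3. Without WT replicate 1 it was -0.28, and without both that library and Zpbp2 KO replicate 1 it was -0.24. The part of the muscle transcripts of WT replicate 1 in the Angptl4 level was not tested.

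The 3 apolipoprotein genes were the most abundant regulators, and none of them stood apart between the genotypes. Apoc2, the cofactor of lipoprotein lipase (ENSMUSG00000002992, chromosome 7), had 209.5, 203.3 and 173.9 CPM in Zpbp2 KO livers, against 173.3, 152.8 and 178.6 CPM in WT livers. Its log2 fold change was 0.22 ± 0.110 (SE). Apoc3, an inhibitor of lipoprotein lipase and of remnant uptake (ENSMUSG00000032081, chromosome 9), had 1592, 1889 and 1236 CPM in Zpbp2 KO livers, against 1210, 1244 and 1406 CPM in WT livers. Its log2 fold change was 0.29 ± 0.157 (SE), or 0.14 without Zpbp2 KO replicate 2 and 0.43 without Zpbp2 KO replicate 3. In both genes Zpbp2 KO replicates 1 and 2 lay above all WT livers and Zpbp2 KO replicate 3 lay among them. The libraries also differed in a trend with transcript length and GC content, and with that trend removed the log2 fold change was 0.14 for Apoc2 and 0.19 for Apoc3.

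Apoa5, which raises lipoprotein lipase activity (ENSMUSG00000032079, chromosome 9), had a narrow spread in Zpbp2 KO livers and a wide one in WT livers, a difference in spread that was not tested. It had 1498, 1515 and 1517 CPM in Zpbp2 KO livers, against 1683, 1271 and 1146 CPM in WT livers. The Zpbp2 KO livers lay within the WT range. The coefficient of variation was 0.697% in Zpbp2 KO livers and 20.6% in WT livers, where the median over tested genes with a mean of at least 1 CPM was 13.1% in Zpbp2 KO and 9.45% in WT livers. The log2 fold change was 0.14 ± 0.145 (SE). It was 0.32 without WT replicate 1, 0.0932 without WT replicate 2, 0.0161 without WT replicate 3, and 0.0712 with the length and GC trend removed.

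**Figure D4:**
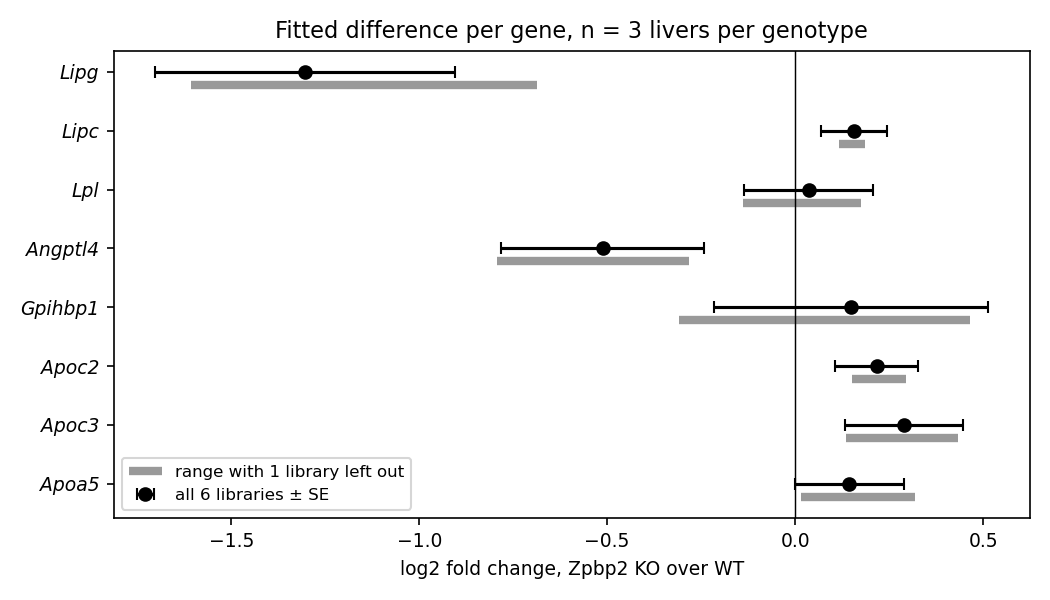
Fitted log2 fold change, Zpbp2 KO over WT, of each gene with all 6 libraries (black point, bar ± SE) and the range of the fit when each library is left out in turn (grey bar). Lipg runs from -1.61 to -0.69 and Angptl4 from -0.79 to -0.28, on the negative side throughout, while the bars of Lpl and Gpihbp1 cross 0.

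Start regions of Apoc2, Apoa5 and Lipc, the cofactor, the activator and the lipase made by hepatocytes, are shown because these were the genes with a window in the table used. RefSeq windows on GRCm38.p6 run from 250 bases before to 50 bases after a transcript start, and 3 of the 8 genes matched that table. The Apoc2 window is chr7:19677892-19678191 on the minus strand, the Apoa5 window chr9:46268358-46268657 on the plus strand and the Lipc window chr9:70934759-70935058 on the minus strand. Capitals mark matches, on either strand, to AGGTCA, which is the half-site bound by nuclear receptors, and to the TATA box letters searched for in the same windows.
Apoc2: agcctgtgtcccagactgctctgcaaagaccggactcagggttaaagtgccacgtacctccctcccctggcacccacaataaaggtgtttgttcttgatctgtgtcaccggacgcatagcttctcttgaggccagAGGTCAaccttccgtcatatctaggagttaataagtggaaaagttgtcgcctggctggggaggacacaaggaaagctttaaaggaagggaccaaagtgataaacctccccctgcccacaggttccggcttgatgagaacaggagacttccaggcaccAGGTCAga
Apoa5: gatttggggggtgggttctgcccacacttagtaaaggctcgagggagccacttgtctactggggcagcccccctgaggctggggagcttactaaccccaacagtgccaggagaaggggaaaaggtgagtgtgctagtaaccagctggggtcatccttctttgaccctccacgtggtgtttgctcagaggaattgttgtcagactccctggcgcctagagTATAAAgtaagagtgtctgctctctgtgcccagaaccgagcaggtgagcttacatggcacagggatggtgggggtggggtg
Lipc: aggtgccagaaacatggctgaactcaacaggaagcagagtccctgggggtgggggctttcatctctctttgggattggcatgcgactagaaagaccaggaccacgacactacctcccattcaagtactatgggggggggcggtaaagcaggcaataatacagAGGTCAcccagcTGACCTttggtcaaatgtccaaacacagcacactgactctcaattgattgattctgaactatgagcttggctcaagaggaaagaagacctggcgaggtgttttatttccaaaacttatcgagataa
AGGTCA was found 2 times in the Apoc2 window, 2 times in this Lipc window and 0 times in the Apoa5 window, and 16.3% of 32851 windows of this length hold it. The TATA box letters, TATAAA, were found 1 time, in the Apoa5 window, 31 bases before the start, or 56 bases before the start of a second Apoa5 window in the table at chr9:46268383-46268682, and 13.6% of windows hold it. The direct repeat, AGGTCA, any 1 base, then AGGTCA (0.0396% of windows), and CAAAGTCCA, an HNF4 site (0.475% of windows), were in none of the 3 windows. A second Lipc window in the table, chr9:70952172-70952471, held none of these 4 motifs. Matches describe these letters and do not show binding.

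Genes around the lipases were measured from 6 lists of 109 genes, of which 96 passed the filter. By edgeR's quasi-likelihood test 0 of the 96 were called, 5 had an unadjusted p below 0.05, limma-voom called 0 and DESeq2 called 2, Pdk4 and G0s2, both lower. Over all tested genes edgeR's test called 0.0136% and gave 5.79% an unadjusted p below 0.05. Limma-voom called 0.0136% of them and DESeq2 0.517%. The lists were chosen with earlier results known, so nothing is read from the counts on them. In this account of the lists, each value in parentheses is a log2 fold change, Zpbp2 KO over WT, ± SE, and n = 3 livers for each mean ± SD. Of the secreted lipases and lipid-modifying enzymes 7 of 18 were tested, 6 of them above 0, and their median was 0.07. It was 0.16 without WT replicate 1, 0.12 without Zpbp2 KO replicate 3, 0.0272 without WT replicate 3, and 0.20 with both WT replicate 1 and Zpbp2 KO replicate 1 left out. Pla1a, a phosphatidylserine-specific phospholipase of the same protein family, had 51.1 ± 0.984 CPM in Zpbp2 KO and 46.1 ± 1.95 CPM in WT livers (0.15 ± 0.0880, SE). Pla2g12b, which takes part in VLDL secretion, had 54.4 ± 10.9 CPM in Zpbp2 KO and 48.8 ± 4.29 CPM in WT livers (0.16 ± 0.156).

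Pancreatic lipase genes were detected almost wholly in a single library. Pnlip, pancreatic triglyceride lipase, had 27.2 CPM in Zpbp2 KO replicate 1, at most 0.175 CPM in the other Zpbp2 KO livers and at most 0.0262 CPM in WT livers. Pnliprp1 (7.99 CPM), Pnliprp2 (1.53 CPM) and Cel (13.0 CPM) were likewise high in that library, and each was at most 0.0658 CPM elsewhere. It is the library that held the exocrine pancreas markers Ctrb1 (44.0 CPM) and Prss2 (16.7 CPM). These 4 lipase genes were named after their values were seen and did not pass the filter on low counts.

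Factors that fold lipases and cleave their regulators were all tested, 10 of 10, with 7 below 0. Their median was -0.11. With 1 library left out it ran from -0.13 without Zpbp2 KO replicate 3 to -0.0390 without WT replicate 2. It was -0.0632 without Zpbp2 KO replicate 2, -0.0700 without Zpbp2 KO replicate 1 and -0.14 with library totals in place of TMM. Pcsk6, a proprotein convertase, had 107 ± 9.04 CPM in Zpbp2 KO and 122.1 ± 10.01 CPM in WT livers (-0.19 ± 0.106), and Pcsk7, another of these convertases, had 30.4 ± 2.01 CPM in Zpbp2 KO and 33.0 ± 1.74 CPM in WT livers (-0.12 ± 0.0994). Lmf1, needed for active lipase to leave the endoplasmic reticulum and chosen after its values were seen, had a log2 fold change of 0.14 ± 0.129.

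Other ANGPTL proteins and apolipoproteins had a median of 0.15, with 14 of 15 tested and 11 above 0. With 1 library left out it ran from 0.0981 without WT replicate 2 to 0.29 without WT replicate 1. Apoh, a phospholipid-binding plasma protein, had 2655, 2930 and 2256 CPM in Zpbp2 KO livers, against 1946, 1727 and 1898 CPM in WT livers (0.49 ± 0.122). It was the 1 gene of the 14 without overlap, where 11.6% of all tested genes had none. Apoh lies on chromosome 11, as Zpbp2 does, and the part of linkage in its level was not tested. Apoc4, the neighbour of Apoc2 in the same gene cluster, had 509.5 ± 112 CPM in Zpbp2 KO and 396.6 ± 28.1 CPM in WT livers (0.36 ± 0.163), with Zpbp2 KO replicate 3 again among the WT livers. Angptl8 (-0.32 ± 0.394), a feeding-induced regulator of lipoprotein lipase chosen after its values were seen, was not called. It had 23.3, 79.8 and 30.7 CPM in Zpbp2 KO livers, around a narrow WT range of 54.1 to 56.7 CPM.

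Receptors and heparan sulfate enzymes, which take up remnants and hold lipases at the cell surface, had a median of -0.05, with 20 of 21 tested and 12 below 0. It ran from -0.11 without WT replicate 3 to -0.0096 without Zpbp2 KO replicate 2, and was -0.0869 without Zpbp2 KO replicate 1 and -0.0800 without Zpbp2 KO replicate 3. Sort1, a sorting receptor of the secretory pathway, had 34.7, 27.0 and 38.9 CPM in Zpbp2 KO livers, against 41.8, 48.6 and 45.5 CPM in WT livers (-0.43 ± 0.143). Ndst1, which sulfates heparan chains, had 158.6, 113.5 and 169.4 CPM in Zpbp2 KO livers, against 180.6, 207.6 and 181.2 CPM in WT livers (-0.37 ± 0.154). Neither of them overlapped between the genotypes, which held for 4 of the 20 tested genes on this list and for 11.6% of all tested genes. Transcriptional regulators had a median of 0.01 over 26 tested genes, 13 on each side. Its sign was not fixed, at -0.03 with library totals in place of TMM, and from -0.0230 without Zpbp2 KO replicate 3 to 0.05 without WT replicate 1. Ppara, the fatty acid sensor that induces Angptl4, had 79.8 ± 32.3 CPM in Zpbp2 KO and 113.7 ± 20.9 CPM in WT livers (-0.51 ± 0.262), with overlap, and Foxa2, a hepatocyte transcription factor, had 37.9 ± 5.68 CPM in Zpbp2 KO and 28.8 ± 8.15 CPM in WT livers (0.39 ± 0.214).

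Other fasting and PPAR-responsive genes had the lowest median of the lists, -0.22, with 18 of 19 below 0, and WT replicate 1 held the highest value of 12 of these 19 as it did for Lipg and Angptl4. The part of that library's muscle transcripts in these levels was not tested. Without it the median was -0.10, without WT replicate 2 it was -0.39, and without both WT replicate 1 and Zpbp2 KO replicate 1 it was -0.08. Cyp4a14, an omega-hydroxylase chosen after its values were seen, showed the spread most, with 26.2, 23.3 and 30.2 CPM in Zpbp2 KO livers and 182.8, 11.8 and 35.8 CPM in WT livers. Pdk4, the kinase that restrains pyruvate dehydrogenase, had 6.36, 6.25 and 4.02 CPM in Zpbp2 KO livers, against 12.9, 13.5 and 21.5 CPM in WT livers (-1.53 ± 0.253). G0s2, an inhibitor of intracellular lipolysis, had 27.6, 53.5 and 21.4 CPM in Zpbp2 KO livers, against 106.5, 56.8 and 81.9 CPM in WT livers (-1.26 ± 0.347). Across the 6 livers Angptl4 and G0s2 had the same highest liver, WT replicate 1, and the same lowest, Zpbp2 KO replicate 3.

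**Figure D5:**
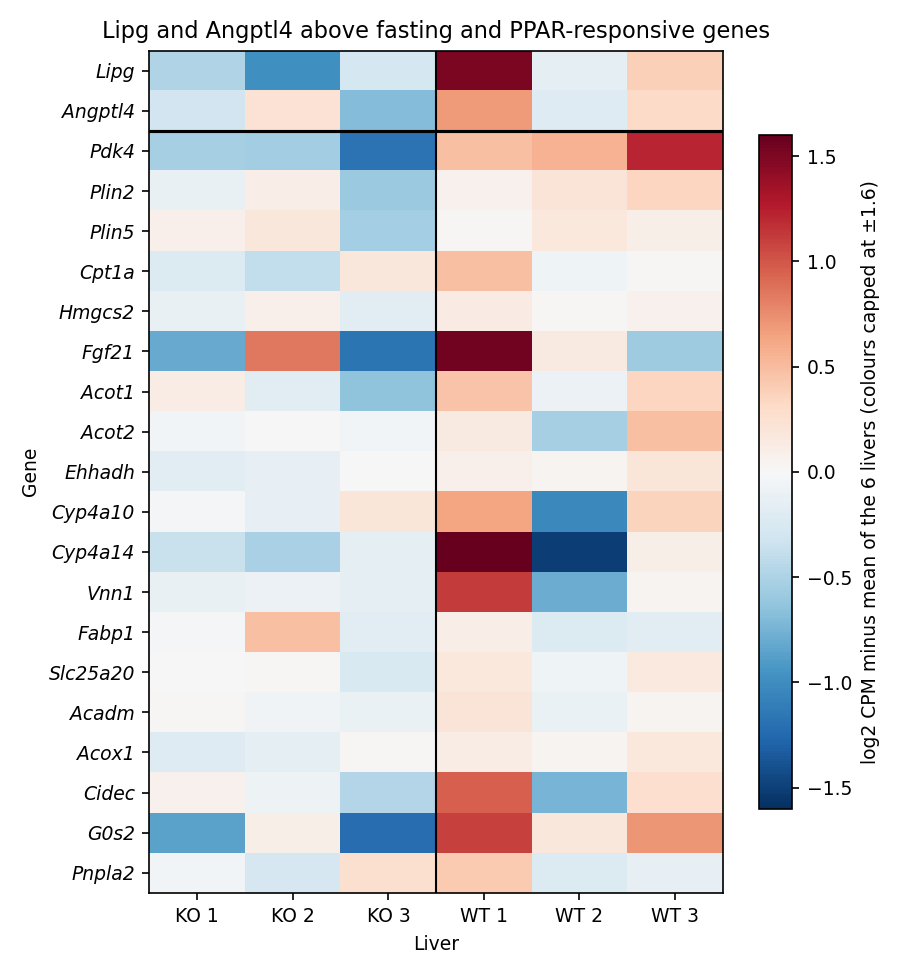
Log2 CPM of Lipg and Angptl4 (top) and of 19 fasting and PPAR-responsive genes, each minus its mean over the 6 livers, with Zpbp2 KO livers left of the WT livers. Red is above and blue below the mean, with colours capped at 1.6. WT 1 is the reddest column, with the highest value of 12 of the 19 genes, and Pdk4 is highest in WT 3.

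The genes whose levels ran closest to those of Lipg, Angptl4 and Apoc3, the 3 with the largest absolute log2 fold change, were found by the root mean square difference of log2 CPM, centred on the mean of the 6 livers, over 11809 genes. Nearest to Lipg were Peg10, a gene derived from a retrotransposon (0.259), Ntrk2, a neurotrophin receptor (0.309), and Pygm, the muscle glycogen phosphorylase (0.318), where the median gene was at 0.807. Pygm had 1.36, 0.943 and 1.26 CPM in Zpbp2 KO livers and 6.81, 1.21 and 1.599 CPM in WT livers, so WT replicate 1 stood apart in it as in the muscle markers. Nearest to Angptl4 were Tnnt1, a troponin of slow muscle (0.142), Ppp1r10, a nuclear subunit of protein phosphatase (0.178), and Ankrd23, a muscle ankyrin repeat protein (0.191), with the median gene at 0.485. Tnnt1 had 0.795, 1.14 and 0.766 CPM in Zpbp2 KO livers and 2.00, 0.953 and 1.42 CPM in WT livers. Ankrd23 had 2.32, 3.90 and 2.07 CPM in Zpbp2 KO livers and 6.31, 2.88 and 3.20 CPM in WT livers. WT replicate 1 was highest in both, but stood far less apart than in the summed muscle markers. Ppp1r10 had 35.0, 56.9 and 25.0 CPM in Zpbp2 KO livers and 85.7, 47.8 and 69.5 CPM in WT livers, the same order of livers within each genotype as Angptl4. Nearest to Apoc3 were Polr2f, a subunit of RNA polymerases (0.0264), Etfb, an electron transfer flavoprotein subunit (0.0276), and Car3, a carbonic anhydrase (0.0313), with the median gene at 0.284. With 6 livers such nearness is a description.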

How the data were processed

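Poly(A) RNA of 6 livers was measured, 3 of each genotype, from 250 ng of total RNA and read as pairs of 100 cycles, per the labels' protocols. The deposited values are raw counts per Ensembl gene ID and library; STAR, Picard and HTSeq with build mm9 are named per the submitters' processing notes, while tool versions, the annotation and the strand setting are not given in these sources; the library kit was directional. Whether neighbouring genes such as Apoc2 and Apoc4 share reads was not tested. Of 37991 IDs, 32919 (86.6%) matched a GENCODE M21 symbol. Genotypes were compared with edgeR 4.0.16 (filterByExpr with a minimum count of 10, TMM, quasi-likelihood F-test, two-sided, no covariate) in R 4.3.3, with Benjamini-Hochberg adjustment over all 14686 tested genes. The SE is that implied by the test. DESeq2 1.42.0, limma-voom (limma 3.58.1), other scalings and filters, the replicate block, a robust fit, length and GC offsets and leave-one-out fits were alternatives, and the fits were tested on simulated data. Replicates of the same genotype differed by 19.9 to 102.5 chi-square units per gene, so no library was a copy of another of its genotype. Pairs across genotypes were not compared in this way.

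Genes, lists and tests were chosen with earlier results of these data known. Named genes were the 8, the 2 of smallest p on each list and any called, and the 3 nearest to each of the 3 genes with the largest absolute difference. Lmf1, Angptl8, Cyp4a14, Pnlip, Pnliprp1, Pnliprp2, Cel and the marker genes named singly were chosen outside this rule, after their values were seen. Marker lists were 8 genes each for hepatocytes, sinusoidal and vascular endothelium, Kupffer cells, stellate cells and lymphocytes, 7 for adipocytes, and 6 each for striated muscle and exocrine pancreas. Lymphocyte markers summed to 5.26 to 8.64 CPM in Zpbp2 KO and 3.55 to 6.79 CPM in WT livers, Kupffer cell markers to 142.6 to 445.5 CPM in Zpbp2 KO and 245.8 to 349.8 CPM in WT livers, stellate cell markers to 180.6 to 278.1 CPM in Zpbp2 KO and 212.7 to 272.6 CPM in WT livers, and adipocyte markers to 2.57 to 6.27 CPM in Zpbp2 KO and 2.78 to 9.00 CPM in WT livers.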

Additional observations from a re-analysis of the deposited data

How the results depend on the processing

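The number of genes called was 2 with edgeR's quasi-likelihood test and all libraries, 2 with limma-voom and 76 with DESeq2. EdgeR called 12 with no filter on low counts and 2 to 4 with 1 library left out, the highest being without Zpbp2 KO replicate 2. With both WT replicate 1 and Zpbp2 KO replicate 1 left out, a setting chosen after seeing the data, edgeR's quasi-likelihood test called 0 genes, with 721 at an unadjusted p below 0.05. That fit compared 2 livers with 2, so fewer calls cannot be laid to those libraries. Without WT replicate 1 alone 2 genes were called, and without Zpbp2 KO replicate 1 alone 3. Of the 8 lipase-system genes DESeq2 called 1 and every edgeR and limma-voom setting 0. Of the 96 genes on the lists DESeq2 called 2, and edgeR with no filter called 1, Pdk4. Turned signs occurred for Lpl and Gpihbp1: over fits without 1 library the log2 fold change of Lpl ran from -0.14 to 0.18 and that of Gpihbp1 from -0.31 to 0.47, and Gpihbp1 stood at -0.0702 with both libraries left out. Whether replicate numbers in the labels pair the livers was not settled. Deviations of same-numbered livers correlated at 0.138, 0.25 and -0.338 across genes, and those of other pairs at -0.362 to 0.288. With 3 livers per genotype these values cannot decide it. With the replicate block 2 genes were called, 0 of the 8 and 0 of the 96. The block lowered the SE of Lipg from 0.398 to 0.261 and that of Gpihbp1 from 0.365 to 0.199. It also lowered that of Lpl, and raised those of Lipc, Angptl4, Apoc2, Apoc3 and Apoa5. Levels per length moved by more than 1 SD with the longest transcript for 7 of the 8 genes.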
